A study of Bos taurus and Bos grunniens x Bos taurus and Bos grunniens with 18 samples.

Results

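The p53 response and apoptosis were followed through 8 genes in the testes of cattle, yak and their hybrid: CDKN1A, MDM2, APAF1, BAX, FAS, CASP8, CASP9 and BCL2L1. They were taken by symbol from the mRNA table, in which all 8 were present among 19994 genes, and each was represented by 1 transcript. All 8 were among the 14091 genes tested, which had a value of at least 1 FPKM in at least 3 libraries. FPKM counts fragments relative to transcript length and to all mapped fragments of the library. RNA depleted of ribosomal RNA had been sequenced from 3 cattle (Bos taurus), 3 cattle-yaks (labelled Dzo, Bos grunniens x Bos taurus) and 3 yaks (Bos grunniens). All animals were 4 years old, came from the same cooperative and were castrated for the study, and no animal is labelled as treated or genetically modified. The labels do not say which species was the dam of the hybrids. Each library came from whole testis, so a value is an average over germ cells and somatic cells.

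The transcription factor p53 is kept low in unstressed cells because MDM2, an E3 ubiquitin ligase, marks it for degradation, and MDM2 is itself a p53 target, which closes a feedback loop. When p53 accumulates it raises CDKN1A, which encodes the cyclin-dependent kinase inhibitor p21, and several genes of cell death. Death can start at the membrane, where the receptor FAS recruits the initiator caspase CASP8, or at mitochondria, where BAX opens the outer membrane and BCL2L1 (BCL-XL) restrains it. Cytochrome c released from mitochondria lets APAF1 assemble the apoptosome, which activates the initiator caspase CASP9. In the mammalian testis apoptosis removes germ cells, and male cattle-yaks are known to be sterile with germ cell development arrested.

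In cattle-yak testis 6 of the 8 genes were higher than in cattle testis, and 7 of 8 were higher than in yak testis. None was lower in the deposited FPKM values. CDKN1A, MDM2, BAX, FAS, CASP8 and APAF1 rose against both parents, whereas CASP9 did not pass the test against either parent and BCL2L1 passed it narrowly against yak alone. These are calls at an adjusted p under 0.05 in limma, over all genes tested. The background was high, since 54.4% of all tested genes were called higher and 30% lower in cattle-yak than in cattle. Against yak, 55.3% were called higher and 30.7% lower, and 50.7% were called higher against both parents. The 3 hybrid libraries lay above all 3 libraries of a parent for 7 of 8 genes, all but CASP9, and for 55.4% of tested genes against cattle and 56.5% against yak. The median log2 fold change of the 8 genes was 1.21 against cattle and 1.38 against yak, beside 0.50 and 0.54 for all genes tested. The number of members called therefore does not set these 8 genes apart, and their individual values are given with that shift of all genes beside them. Of the 8 genes, 6 reached 1 FPKM in at least 3 parental libraries, as did 13069 of the 14091 genes tested. FAS and CASP8 reached it in no parental library and passed the filter only with the cattle-yak libraries. The counts and medians of the 8 genes above include them and so depend in part on the filter. Leaving out any single cattle-yak library took FAS and CASP8 out of the genes tested and left 4 members called against each parent. Log2 fold changes are differences of log2(FPKM + 1), which understate changes of genes with low values.

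**Figure D1:**
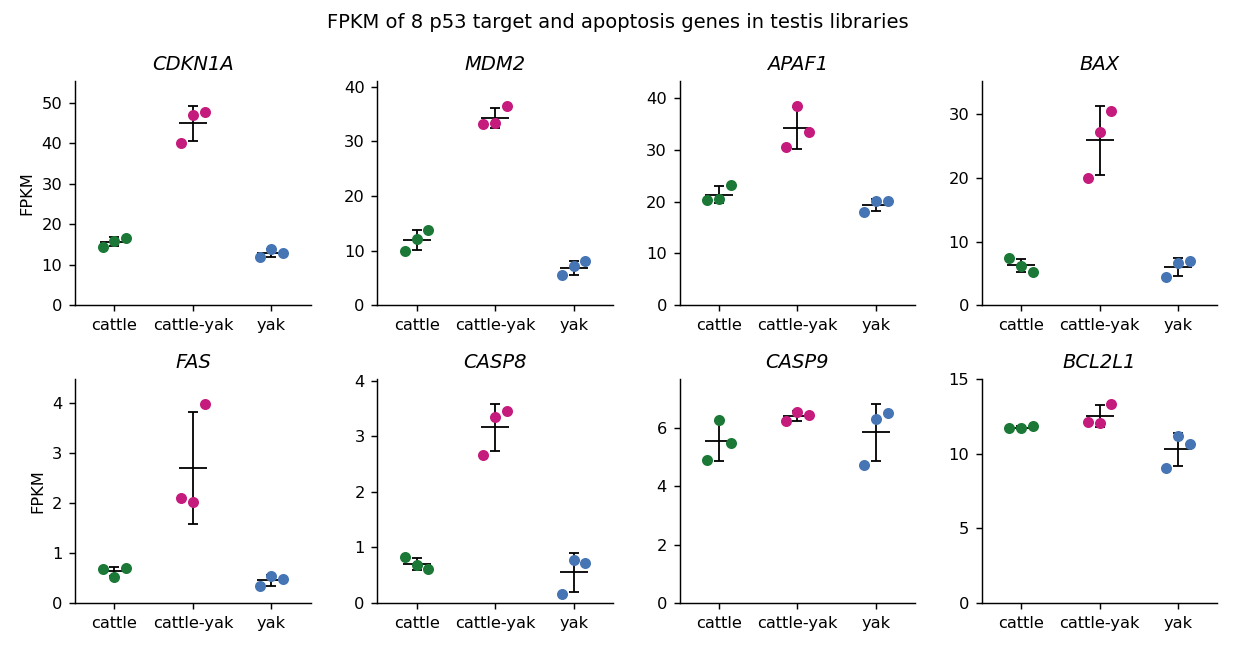
FPKM of the 8 genes in each testis library, with an axis from 0 for each gene. Points are single animals, 3 in each group, horizontal lines are means and error bars are SD; the cattle-yak points lie above all parental points in every panel but that of CASP9.

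CDKN1A, which encodes p21, had the highest mean level of the 8 genes in cattle-yak testis. It measured 14.4, 15.9 and 16.6 FPKM in the cattle libraries, 39.9, 47.0 and 47.7 FPKM in the cattle-yak libraries, and 11.9, 13.9 and 12.9 FPKM in the yak libraries. All 3 cattle-yak libraries were above all 6 parental libraries, and the lowest cattle library was above the highest yak library. The mean was 15.6 ± 1.11 FPKM in cattle, 44.9 ± 4.29 in cattle-yak and 12.9 ± 1.02 in yak (SD, n = 3 each). In limma the log2 fold change of cattle-yak relative to cattle was 1.46 ± 0.11 (SE, adjusted p = 1.09e-06), and relative to yak it was 1.72 (adjusted p = 3.21e-07). Within a library, CDKN1A exceeded 60.7 to 62.3% of tested genes in cattle and 56.8 to 58.9% in yak, but 82.6 to 85.4% in cattle-yak. Its rank among genes thus moved up as well as its FPKM.

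MDM2, the ligase that degrades p53, rose against both parents and also differed between them. Its values were 9.996, 12.1 and 13.8 FPKM in cattle, 33.2, 33.3 and 36.5 FPKM in cattle-yak, and 5.45, 7.13 and 8.04 FPKM in yak. None of the 3 groups overlapped another, and the order was cattle-yak, cattle, yak. Group means were 11.96 ± 1.90, 34.3 ± 1.88 and 6.87 ± 1.31 FPKM (SD, n = 3 each) for cattle, cattle-yak and yak. Relative to cattle the hybrid had a limma log2 fold change of 1.46 ± 0.15 (SE, adjusted p = 8.20e-06). Relative to yak it was 2.18 (adjusted p = 5.28e-07), above that of 96.1% of all tested genes. MDM2 exceeded 78.1 to 80.2% of tested genes within a cattle-yak library, compared with 51.6 to 57.7% in cattle and 41.5 to 46.2% in yak.

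FAS, the death receptor, was below 1 FPKM in both parents and higher in the hybrid. It measured 0.680, 0.520 and 0.692 FPKM in cattle, 2.11, 2.01 and 3.99 FPKM in cattle-yak, and 0.333, 0.547 and 0.475 FPKM in yak. Every cattle-yak library was above every parental library, and cattle-yak replicate 3 stood well above the other hybrids. Its limma log2 fold change was 1.14 ± 0.19 (SE, adjusted p = 0.000185) relative to cattle and 1.31 (adjusted p = 6.20e-05) relative to yak. The plain ratio of mean FPKM was 4.29 against cattle and 5.98 against yak.

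CASP8, the initiator caspase that FAS recruits, had nearly the same levels. It measured 0.821, 0.685 and 0.610 FPKM in cattle, 2.67, 3.35 and 3.46 FPKM in cattle-yak, and 0.152, 0.778 and 0.717 FPKM in yak. The hybrid libraries again lay above all parental ones, and yak replicate 1 was far below the other yaks. For CASP8 the limma log2 fold change was 1.28 ± 0.17 (SE, adjusted p = 5.02e-05) relative to cattle and 1.45 (adjusted p = 1.87e-05) relative to yak. FAS and CASP8 reached 1 FPKM in none of the 6 parental libraries and entered the test only through the cattle-yak libraries, so that a gene kept in this way had to differ. Even in cattle-yak they exceeded only 16.1 to 27.4% (FAS) and 19.6 to 25.1% (CASP8) of tested genes in the same library.

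BAX, the pore-forming protein of the mitochondrial pathway, had the largest difference in log2(FPKM + 1) of the 8 genes against cattle, though by the ratio of mean FPKM, 4.13 for BAX, it came behind CASP8 (4.48) and FAS (4.29). It measured 7.37, 6.19 and 5.25 FPKM in cattle, 19.9, 27.2 and 30.5 FPKM in cattle-yak, and 4.45, 6.70 and 6.90 FPKM in yak. The hybrids were separate from both parents, while cattle and yak overlapped. Means were 6.27 ± 1.06, 25.9 ± 5.43 and 6.01 ± 1.36 FPKM (SD, n = 3 each) for cattle, cattle-yak and yak. BAX thus had a limma log2 fold change of 1.88 ± 0.20 (SE, adjusted p = 8.84e-06) relative to cattle and 1.94 (adjusted p = 5.90e-06) relative to yak. These exceeded the fold changes of 94.7% and 91.8% of tested genes.

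BCL2L1, which encodes the survival protein BCL-XL that holds BAX in check, was almost level across groups. It measured 11.7, 11.7 and 11.8 FPKM in cattle, 12.1, 12.1 and 13.4 FPKM in cattle-yak, and 9.06, 11.2 and 10.6 FPKM in yak. The groups did not overlap, but the gaps were small. Against cattle the limma log2 fold change was 0.08 ± 0.11 (SE, adjusted p = 0.492), with a 95% confidence interval from -0.16 to 0.33. Against yak it was 0.26 (adjusted p = 0.0425), with an interval from 0.02 to 0.51. That call was lost in 8 of the 9 fits that left out 1 library, all but the one without yak replicate 2, with adjusted p up to 0.126.

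Because BAX and BCL2L1 oppose each other, their FPKM were also set against each other within each library. In the plain ratio any scaling of a whole library cancels. The ratio of BAX to BCL2L1 was 0.629, 0.528 and 0.443 in cattle, 1.64, 2.25 and 2.28 in cattle-yak, and 0.491, 0.600 and 0.648 in yak. BAX was below BCL2L1 in all 6 parental libraries and above it in all 3 hybrid libraries. The mean ratio was 0.533 ± 0.0932 in cattle, 2.06 ± 0.361 in cattle-yak and 0.579 ± 0.0805 in yak (SD, n = 3 each). The difference in log2(FPKM + 1) of BAX over BCL2L1 was higher in cattle-yak by 1.79 than in cattle and by 1.67 than in yak. Because of the added 1, a scaling of a whole library does not fully cancel in this difference. In an exact two-sided permutation test both comparisons gave p = 0.1, the smallest that 3 against 3 libraries allow, and 0.15 after adjustment over the 3 comparisons. Yak and cattle differed by 0.12, with an exact permutation p of 0.6. The ratio is of mRNA levels and says nothing of the amounts of protein.

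**Figure D2:**
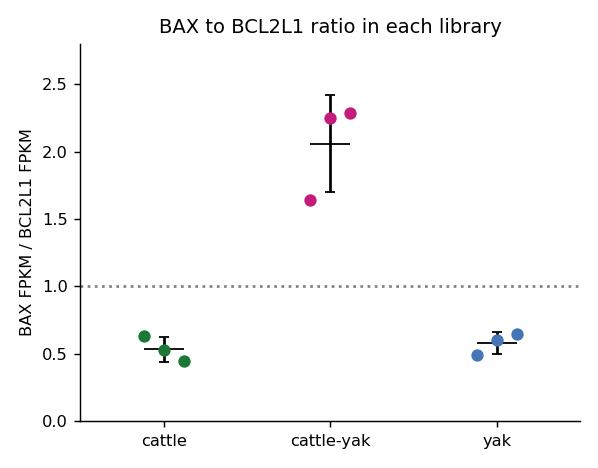
Ratio of BAX FPKM to BCL2L1 FPKM within each library. Points are single animals, 3 in each group, lines are means, bars are SD and the dotted line marks equal FPKM; the hybrid libraries lie between 1.64 and 2.28 and all parental libraries are below 0.65.

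APAF1, the scaffold of the apoptosome, showed a smaller rise. It measured 20.3, 20.4 and 23.2 FPKM in cattle, 30.5, 38.4 and 33.5 FPKM in cattle-yak, and 17.97, 20.1 and 20.04 FPKM in yak. The hybrid libraries did not overlap either parent, and all cattle libraries were above all yak libraries. In limma APAF1 had a log2 fold change of 0.65 ± 0.11 (SE, adjusted p = 0.000287) relative to cattle and 0.78 (adjusted p = 7.04e-05) relative to yak. This was close to the shift of all genes, with 55.1% and 57.1% of tested genes below it.

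CASP9, the caspase that the apoptosome activates, was not called against either parent in the deposited FPKM. It measured 4.90, 6.25 and 5.48 FPKM in cattle, 6.23, 6.56 and 6.44 FPKM in cattle-yak, and 4.71, 6.31 and 6.51 FPKM in yak. The hybrid values fell within or just above the range of the parents. Relative to cattle the limma log2 fold change was 0.18 (95% confidence interval -0.13 to 0.49, adjusted p = 0.241). Relative to yak it was 0.12 (-0.19 to 0.44, adjusted p = 0.418). APAF1 was thus called higher and CASP9 was not; the difference between these genes was not tested.

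**Figure D3:**
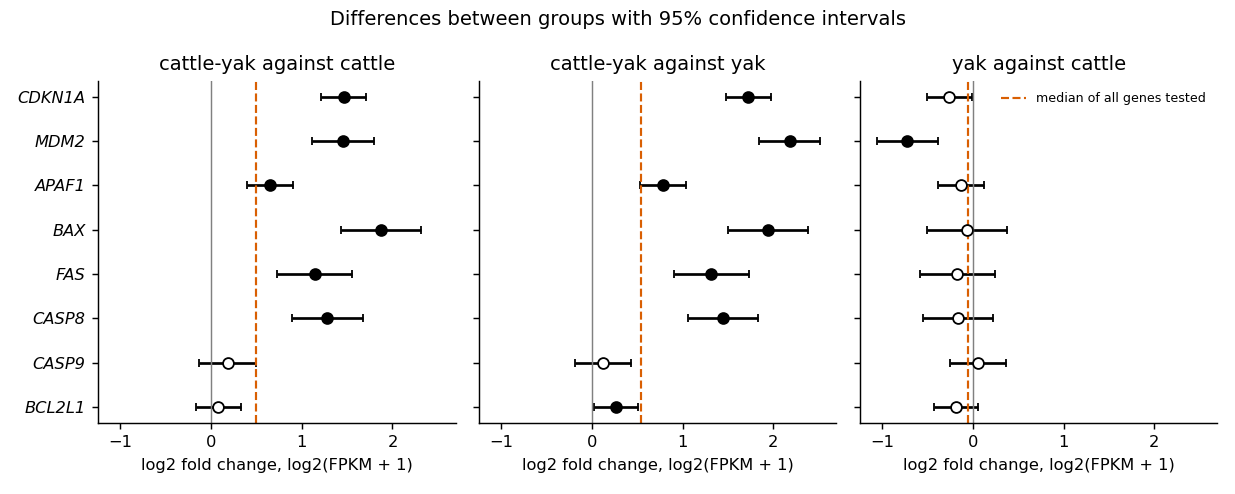
Log2 fold changes of the 8 genes in the 3 comparisons, on the log2(FPKM + 1) scale, with 95% confidence intervals from limma. Filled points have an adjusted p under 0.05, the dashed line is the median of all genes tested, and the intervals of CASP9 and BCL2L1 lie below that line against both parents.

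The 8 genes fell into a different order of level in the hybrid. In both parents APAF1 had the highest mean FPKM, followed by CDKN1A, and CASP8 and FAS had the lowest and overlapped each other. In cattle MDM2 and BCL2L1 overlapped, as did BAX and CASP9. In yak BCL2L1 stood above MDM2, BAX and CASP9, which overlapped in that order. In cattle-yak CDKN1A came first, MDM2 and APAF1 overlapped behind it, and BAX stood above BCL2L1 and CASP9. FPKM is per length of transcript, so these levels can be compared between genes.

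In the comparison of the parents, 1 of the 8 genes was called. MDM2 was lower in yak than in cattle, with a limma log2 fold change of -0.72 ± 0.15 (SE, adjusted p = 0.00878), where 10.7% of all tested genes were called lower and 8.36% higher. It kept its call in every alternative tried, with log2 fold changes from -0.84 to -0.59 and adjusted p up to 0.0366. CDKN1A, APAF1 and BCL2L1 were also lower in every yak library than in any cattle library, with log2 fold changes of -0.26, -0.13 and -0.18. None of these passed the limma test (adjusted p = 0.131, 0.457 and 0.279). Non-overlap in either direction occurred in 39.9% of all tested genes. For BAX, FAS, CASP8 and CASP9 the log2 fold changes lay between -0.17 and 0.06. The submitters' processing notes name a cattle build, and how yak reads mapped to it was not tested, here or for the hybrid against yak.

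Individual animals differed along the list. Yak replicate 1 had the lowest yak value for all 8 genes, and it was the lowest yak library for 51.5% of all tested genes. Cattle-yak replicate 1 was the lowest hybrid for 6 of the 8 genes and for 36.4% of all tested genes. Cattle-yak replicate 3 was the highest for 6 of the 8 and for 36.8% of all tested genes. After median-ratio scaling yak replicate 1 remained lowest for 6 of 8 genes and was lowest for 37.5% of all tested genes. Without it the log2 fold change of CASP8 in cattle-yak against yak was 1.25, the lowest of the fits that left out 1 library.

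The scaling of the libraries bears on every value above. FPKM is relative to the total of each library. Median-ratio factors, the typical ratio of a library to the average library over genes detected in all, were 1.34 to 1.38 in cattle-yak and 0.80 to 0.93 in the parents. Dividing by them moved the median log2 fold change of all genes from 0.50 to 0.01 against cattle and from 0.54 to -0.02 against yak. The share of calls that were higher fell from 64.5 to 49.0% against cattle and from 64.3 to 48.5% against yak, while in yak against cattle it went from 43.8 to 55.5%.

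Under this scaling 5 members were called higher against each parent and 2 lower. Of all tested genes 39.0% were then called higher and 40.6% lower than in cattle, and 39.8% and 42.4% than in yak. Log2 fold changes of CDKN1A were 0.90 relative to cattle and 1.08 relative to yak, those of MDM2 0.90 and 1.56, and those of BAX 1.34 and 1.33. FAS had 0.79 and 0.94 and CASP8 0.90 and 1.06. APAF1 fell to 0.10 and 0.14 and lost its call (limma adjusted p = 0.394 and 0.204). BCL2L1 turned to -0.45 and -0.34 (limma adjusted p = 0.00147 and 0.00656). CASP9 turned to -0.31 and -0.44 (limma adjusted p = 0.0358 and 0.00581), so that both were called lower in the hybrid. Relative to the typical gene, CASP9 and BCL2L1 were lower in cattle-yak and APAF1 could not be told from it. Under quantile normalisation CASP9 and BCL2L1 were also below 0 against both parents, without a call.

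**Figure D4:**
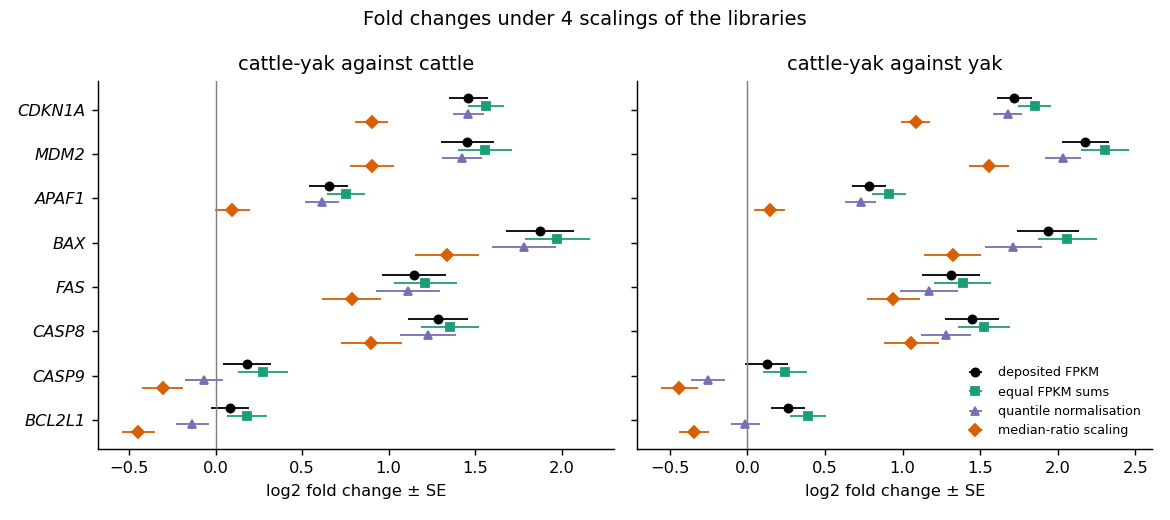
Log2 fold changes of the 8 genes in cattle-yak against each parent under 4 scalings of the libraries, on the log2(FPKM + 1) scale. CDKN1A, MDM2, BAX, FAS and CASP8 stay above 0 under each, bars are SE, and CASP9 and BCL2L1 cross 0 under median-ratio scaling and quantile normalisation.

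The mRNA levels of cell type markers also differed between the hybrid and parental testes. The summed FPKM of 12 spermatid markers was 16875 to 28686 in cattle, 16.7 to 99.5 in cattle-yak and 21687 to 23958 in yak, and 12 of 12 were called lower against each parent. ACRV1, an acrosomal gene, was listed at 0 in cattle-yak replicate 3. The 11 spermatocyte markers summed to 659 to 722, 563 to 863 and 623 to 687 FPKM, and most were not called. Against cattle 3 were called higher and 2 lower, and against yak 2 higher and 2 lower. After median-ratio scaling 5 and 6 of 11 were called lower and 2 higher. The sums hid opposite differences of single genes, named after their values were seen. Mean FPKM in cattle, cattle-yak and yak was 55.2, 198.9 and 45.03 for TEX11 and 28.4, 90.8 and 23.2 for SYCP3. It was 195.96, 34.6 and 193.8 for PIWIL1 and 67.8, 6.996 and 71.7 for CCNA1. All 8 tested spermatogonial markers were called higher in the hybrid against each parent, with sums over 9 matched genes of 96.1 to 116 in cattle, 286 to 364 in cattle-yak and 63.1 to 93.9 in yak. After median-ratio scaling 6 of these were called higher against cattle and 7 against yak. Among them GFRA1 reached 1 FPKM in no parental library, so the filter kept it for its hybrid values. NANOS2 was listed at 0 in all yak libraries.

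Most somatic marker lists were higher in the hybrid, and the counts for Sertoli, Leydig and peritubular cells were the same under all 4 scalings. Sertoli cell markers summed to 374 to 487 FPKM in cattle, 1660 to 1936 in cattle-yak and 367 to 499 in yak, with 10 of 10 tested called higher against each parent, and GATA1 was listed at 0 in cattle-yak replicate 2. Leydig cell markers summed to 198 to 350, 1527 to 2149 and 246 to 568 FPKM, with 7 of 7 higher. Peritubular muscle, with 5 of 5 higher, summed to 65.8 to 105, 225 to 276 and 25.9 to 73.2 FPKM. Macrophage markers summed to 63.7 to 65.1, 162 to 282 and 36.8 to 67.8 FPKM, with 3 of 7 tested called higher against cattle, 6 of 7 against yak, and 1, CD14, called lower against each. MARCO, a macrophage receptor, was listed at 0 in 2 cattle, 2 cattle-yak and 1 yak library. Endothelial markers summed to 8.96 to 15.3, 25.6 to 30.1 and 18.6 to 21.1 FPKM, with 5 and 4 of 6 tested higher against cattle and yak and 1, VWF, lower against each. Lymphocyte markers summed to 8.84 to 14.3, 20.5 to 23.9 and 4.16 to 9.48 FPKM, with 3 and 4 of 5 tested higher. Only 3 of these 5 lymphocyte markers reached 1 FPKM in at least 3 parental libraries. The same held for 6 of the 7 macrophage and 5 of the 6 endothelial markers tested. The others passed the filter only with the cattle-yak libraries. Blood markers summed to 11.1 to 25.7, 1.69 to 2.77 and 43.5 to 48.6 FPKM, a sum carried by S100A12 and AHSP, the only 2 tested and both called lower in the hybrid. The haemoglobin genes HBB and HBA were below 1 FPKM in every library and listed at 0 in some, and ALAS2 was listed at 0 in all 9.

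Of 11 housekeeping genes, 9 were called higher in cattle-yak than in cattle and 8 than in yak, with median log2 fold changes of 1.06 and 1.29. After median-ratio scaling 6 and 7 were called higher. The part of the cell type marker differences and of the housekeeping shift in the members' values was not tested. In such bulk libraries fewer cells of a type and less RNA per cell cannot be told apart.

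Most tested genes of the wider p53 response were called higher in the hybrid as well, with exceptions. The counts of this and the following lists stand beside 54.4% of all tested genes called higher than in cattle and 55.3% than in yak. Of all tested genes 30% and 30.7% were called lower. After median-ratio scaling the shares called higher were 39.0% and 39.8%, and those called lower 40.6% and 42.4%. Of 28 listed p53 targets other than the members, 25 were matched and 21 tested, and 17 were called higher and 3 lower in cattle-yak against each parent. Their median log2 fold change was 1.09 against cattle and 1.15 against yak, and 2 of the 21, PLK3 and PERP, named after their values were seen, passed the filter only with the cattle-yak libraries. CCNG1, which encodes cyclin G1, measured 50.8 FPKM on average in cattle, 207 in cattle-yak and 38.2 in yak, with log2 fold changes of 2.003 and 2.43. GADD45A, a growth arrest gene, measured 5.71, 31.0 and 6.36 FPKM, with log2 fold changes of 2.26 and 2.16. RPS27L, a ribosomal protein paralogue whose reads may be shared with RPS27, measured 88.8, 151 and 94.98 FPKM. It rose by 0.75 and 0.67 on the log2 scale but by 0.18 and 0.01, without a call, after median-ratio scaling.

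Against this, SPATA18, a gene of mitochondrial quality control named for spermatogenesis, fell to 4.47 FPKM in cattle-yak from 121 in cattle and 90.2 in yak, log2 fold changes of -4.49 and -4.07. PPM1D, the WIP1 phosphatase that damps the p53 response, measured 38.2, 15.5 and 66.0 FPKM, with log2 fold changes of -1.24 and -2.03. TP53I3, a quinone oxidoreductase, was the other gene called lower, by -0.39 and -1.10, and was chosen after its values were seen. Under median-ratio scaling 14 targets were called higher against each parent, with 4 lower against cattle and 3 against yak.

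Among 15 tested genes of the p53 family and its regulators, 8 were called higher and 3 lower than in cattle. Against yak 9 were called higher and 3 lower. The counts called higher were near the shares of all tested genes, 54.4% and 55.3%, and do not set the list apart. In this list 1 of the 15 passed the filter only with the cattle-yak libraries. The acetyltransferase gene EP300 measured 5.74, 13.9 and 4.72 FPKM in cattle, cattle-yak and yak, with log2 fold changes of 1.15 and 1.39. TP53BP1, a DNA break repair gene, rose by 0.49 and 0.76 but had -0.08 and 0.11, without a call, after median-ratio scaling. The acetyltransferase gene KAT5 fell from 32.9 and 39.0 FPKM to 15.8, with log2 fold changes of -1.01 and -1.25. TP73, a transcription factor gene, measured 1.122 FPKM in cattle, 0.361 in cattle-yak and 1.10 in yak, with log2 fold changes of -0.64 and -0.62. The deacetylase gene SIRT1 fell by 0.71 and 0.28 on the log2 scale, and the call against yak was lost when cattle-yak replicate 3, yak replicate 1 or yak replicate 3 was left out. It was also lost under quantile normalisation, with equal FPKM sums and with the replicate number as a block (limma adjusted p = 0.101, 0.275 and 0.0566). USP7, a deubiquitinase of MDM2 and p53, was not called, at 106, 92.7 and 103 FPKM. After median-ratio scaling USP7 was called lower, at -0.76 and -0.81 (limma adjusted p = 0.000112 and 6.35e-05). Under median-ratio scaling this list had 4 called higher and 6 lower against cattle, and 4 higher and 5 lower against yak.

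The other cyclin-dependent kinase inhibitors went in both directions. Of 5 tested, 1 was called higher and 3 lower against each parent, with median log2 fold changes of -0.85 and -1.09. CDKN1B, which encodes p27, measured 10.3, 37.4 and 9.95 FPKM in cattle, cattle-yak and yak, a rise by 1.76 and 1.84 on the log2 scale. CDKN2C, which encodes p18, fell from 63.4 and 65.1 FPKM to 10.4, with log2 fold changes of -2.52 and -2.55. CDKN2D, of the same INK4 family, fell from 46.9 and 39.6 FPKM to 10.7, with -2.04 and -1.78. CDKN2B was the remaining gene called lower, at -0.85 and -1.09, and was chosen after its values were seen. CDKN1C, which encodes p57, was not called, at 12.9, 13.3 and 12.3 FPKM. Its hybrid values were 7.93, 10.8 and 21.3 FPKM, and without cattle-yak replicate 3 it was called lower than in cattle, at -0.43 (limma adjusted p = 0.0338).

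Around BAX and BCL2L1, members of the BCL2 family on both sides of the balance were called higher. Of 13 tested, 8 were called higher and 3 lower than in cattle, and 8 higher and 4 lower than in yak. Their median log2 fold changes were 0.96 and 0.72. Of all tested genes 54.4% and 55.3% were called higher, so these counts do not set the family apart. Of the 13, BOK and BMF passed the filter on low values only with the cattle-yak libraries, where they were high, and BMF was named after its values were seen. Among survival genes, BCL2 measured 1.37, 6.81 and 0.997 FPKM in cattle, cattle-yak and yak, with log2 fold changes of 1.73 and 1.97. MCL1 measured 41.4, 86.8 and 37.7 FPKM, with 1.05 and 1.19, and BCL2L2 11.6, 36.3 and 9.57 FPKM, with 1.57 and 1.86. BCL2L1 was thus the survival gene of these 4 that was not called higher against cattle. BOK, a BAX relative, measured 0.515, 6.67 and 1.24 FPKM, with log2 fold changes of 2.36 and 1.80. BAD, a BH3-only death gene, had log2 fold changes of -0.44 and -0.56, and the former lost its call when cattle replicate 2, cattle replicate 3 or cattle-yak replicate 1 was left out. BCL2L14 fell from 69.0 and 64.0 FPKM to 1.11, with log2 fold changes of -5.07 and -4.96. After median-ratio scaling 8 of the family were called higher and 5 lower than in cattle, and 7 higher and 5 lower than in yak.

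Of 19 tested caspases, caspase inhibitors and mitochondrial factors, 13 were called higher and 4 lower than in cattle, and 12 higher and 4 lower than in yak. XIAP, which inhibits caspases, measured 8.73, 32.2 and 7.81 FPKM in cattle, cattle-yak and yak, with log2 fold changes of 1.78 and 1.95. Those lower were CYCT, the testis form of cytochrome c (44.0, 18.1 and 46.2 FPKM), the mitochondrial nuclease gene ENDOG (46.9, 11.1 and 35.7 FPKM), BIRC5, which encodes survivin (98.3, 36.2 and 102 FPKM), and DIABLO, an antagonist of XIAP (138, 100.1 and 141 FPKM). The DIABLO calls, at log2 fold changes of -0.46 and -0.48, were lost under quantile normalisation. After median-ratio scaling 13 of the list were called higher and 6 lower than in cattle, and 10 higher and 7 lower than in yak.

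In the death receptor pathway around FAS and CASP8, 9 of 13 genes were tested, and 8 were called higher and 1 lower against each parent. Among those higher, TNFRSF10D reached 1 FPKM in none of the 6 parental libraries, so the filter kept it for its hybrid values, and it was named after these were seen. FADD, the adaptor that joins FAS to CASP8, measured 7.60, 18.4 and 6.94 FPKM in cattle, cattle-yak and yak, with log2 fold changes of 1.13 and 1.29. TNFRSF1A, a tumour necrosis factor receptor, measured 7.58, 29.9 and 4.70 FPKM, with 1.84 and 2.51. TNFSF10, the ligand TRAIL, measured 4.09, 8.76 and 2.32 FPKM, with 0.94 and 1.66, and RIPK1, a kinase of the pathway, 11.97, 16.4 and 10.9 FPKM, with 0.42 and 0.54. The receptor gene TNFRSF21 was lower, at 7.53, 3.21 and 7.91 FPKM, with -1.03 and -1.09. After median-ratio scaling 3 genes were called higher against cattle and 4 against yak, with 1 lower in each, and RIPK1 turned to -0.12 and -0.08. Against cattle TNFSF10 then had 0.44, without a call (limma adjusted p = 0.195), and it also lost that call with a pseudocount of 0.1 (adjusted p = 0.0537).

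**Figure D5:**
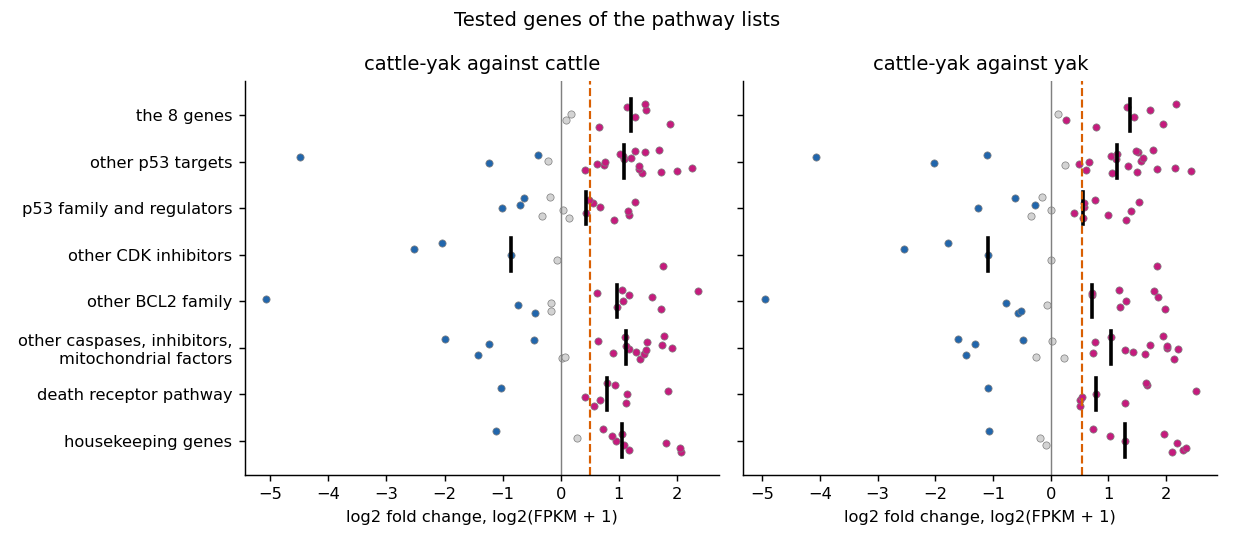
Log2 fold changes of the tested genes of each pathway list in cattle-yak against each parent, on the log2(FPKM + 1) scale, 1 point for each gene, with those of the 8 members and of housekeeping genes. Red points are called higher, blue lower and grey not called, black bars are list medians and the dashed line is the median of all genes tested. Most genes lie above 0, and the lowest points are BCL2L14 of the BCL2 family and SPATA18 of the p53 targets.

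The genes whose profiles over the 9 libraries were closest to those of CDKN1A and MDM2 were sought among 9211 genes with a symbol and a mean of at least 5 FPKM. Closeness was the root mean square distance of log2(FPKM + 1) after centring each gene. For CDKN1A they were SMC2, a condensin subunit gene (distance 0.074), GCLC, of glutathione synthesis (0.076), and TWSG1, which encodes a BMP-binding protein (0.078). SMC2 measured 9.30, 28.3 and 8.12 FPKM in cattle, cattle-yak and yak. For MDM2 they were the glycosyltransferase gene GALNT1 (0.090), USP53 (0.096) and the chromatin helicase gene HELLS (0.107). GALNT1 measured 17.2, 48.5 and 10.8 FPKM. Yak was lowest, as for MDM2, which follows from choosing GALNT1 by closeness of profile. These distances describe the 9 libraries, which share the differences in cell type markers between groups.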

How the data were processed

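Testis RNA of 9 animals was analysed; 9 small RNA samples of the series, of 18 samples in all, were not analysed here. FPKM values per transcript were computed and deposited by the authors. The submitters' processing notes name Trimmomatic, HISAT2 (2.0.5), StringTie (1.3.4), Cufflinks, Bowtie and the cattle build UMD3.1, without saying what each was used for. How yak reads mapped to a cattle build was not tested. Per the labels, libraries were directional and read in pairs of 125 nt. Circular RNAs carry no host gene in their table and were not analysed here for these genes.

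FPKM were summed per gene ID. Genes at 1 FPKM or more in at least 3 libraries were fitted as log2(FPKM + 1) in limma 3.58.1 (R 4.3.3) with trend, over all 9 libraries. The two-sided tests were corrected by the Benjamini-Hochberg method across the 14091 genes. The fit was tested on simulated data. Summed FPKM per library were 408528 to 481551. Read depth is unknown: only 2.44 to 4.47% of low values lay at the commonest ratio between libraries, and without whole reads a count test could not be run.

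The members, lists and tests were chosen with earlier results of these data known. Named genes were all 8 members and, of each pathway list, the 3 most abundant tested genes and the 2 highest and 2 lowest by mean fold change. For CDKN1A and MDM2, the 3 genes with the closest profiles were named. Some genes that this rule takes are not reported here. Alternatives were pseudocounts, filters, scalings, samples in the fit, a replicate block and leaving out each library. The labels describe separate animals.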

Additional observations from a re-analysis of the deposited data

How the results depend on the processing

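The count of members called stayed at 6 against cattle and 7 against yak under other pseudocounts, filters and variance models. Leaving out 1 library gave 4 to 7 called against yak, for genes and for transcripts alike. The 4 arose without cattle-yak replicate 1, 2 or 3, where FAS and CASP8 no longer passed the filter and BCL2L1 lost its call. With genes filtered over all 9 libraries, a choice made after seeing the data, leaving out 1 library gave 6 or 7 called against yak and 6 against cattle. BCL2L1 against yak also lost its call under quantile normalisation and with only the groups compared (limma adjusted p = 0.0771).

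The following log2 fold changes changed direction, those of RIPK1, of TP53BP1 and of BCL2L1 against yak from a call. Under quantile normalisation, against cattle and yak, CASP9 had -0.065 and -0.25, BCL2L1 -0.13 and -0.014, and USP7 0.058 and 0.17. Under median-ratio scaling CASP9 had -0.31 and -0.44, BCL2L1 -0.45 and -0.34, RIPK1 -0.12 and -0.077, and TP53BP1 against cattle -0.077. CDKN1C had 0.036 against cattle with equal FPKM sums, and against yak -0.00296 with a pseudocount of 0.1, -0.60 under median-ratio scaling and -0.25 under quantile normalisation. Yak against cattle, BAX had 0.011 under median-ratio scaling and 0.067 under quantile normalisation. With 1 library left out, CDKN1C ranged from -0.43 to 0.23 against cattle, with single values of 0.012 and 0.026, and from -0.37 to 0.29 against yak, with -0.088 without yak replicate 3. CASP9 against yak ranged from -0.00098, without yak replicate 1, to 0.20. In yak against cattle BAX ranged from -0.17 to 0.11, with 0.046 without cattle replicate 1, and CASP8 from -0.28 to 0.037. CASP9 there ranged from -0.014 to 0.18, with -0.013 without cattle replicate 1. These single values were the same with genes filtered over all 9 libraries. The cause was not tested.

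Same-numbered libraries did not pair: their deviations from group means correlated from -0.17 to 0.23. With the replicate number as a block, 6 members were called against cattle, 6 against yak (BCL2L1 lost its call, limma adjusted p = 0.0562) and 1 in yak against cattle. The BAX to BCL2L1 differences of 1.79 and 1.67 had exact sign-flip p = 0.25 with the block, the smallest that 3 pairs allow. That of 0.12 had exact sign-flip p = 0.75. Without 1 library the 3 BAX to BCL2L1 differences were 1.69 to 1.94, 1.58 to 1.82 and 0.01 to 0.23. The planned tests and alternatives on circular RNAs were not run. Read depth is unknown, and 3 animals a group limit the precision.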
